A study of Mus musculus with 4 samples.

Results

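The 10 genes described here act at the first steps of nephron formation in the mouse kidney. They were taken by symbol: Wnt4, Fgf8 and Bmp2, which encode secreted signals, Dkk1, a secreted Wnt inhibitor, Lef1, Pax8, Lhx1 and Osr2, which encode transcription factors, Ccnd1, a cyclin, and Papss2, a sulfation enzyme. All 10 were found among the 52636 gene identifiers of the files, and all passed the filter on low counts that left 18172 genes for testing. Their measured values had no part in the rule that names them, but they were proposed after results of these data were known.

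In the developing kidney, nephrons arise from progenitor cells that cap the tips of the branching ureteric bud. The bud releases Wnt9b, and progenitors that respond through beta-catenin gather into a pretubular aggregate, switch on Wnt4, Fgf8, Pax8 and Lhx1, and turn into an epithelial renal vesicle. Wnt4 and Fgf8 are needed for that step, and Lhx1 for the patterning of the vesicle that follows.

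RNA came from kidney cells purified by flow sorting, with 3000 cells for each library. There were 2 control libraries and 2 labelled Brg1-cKO. Such a name usually stands for deletion of Brg1 in chosen cells, Brg1 being the protein of Smarca4, an ATPase of SWI/SNF chromatin remodelling complexes. The sources used here do not say how the cells were marked for sorting, at what age the kidneys were taken, which Cre was used or what the control genotype was, nor whether a group's libraries were made from different animals. All p-values therefore rest on the spread among 4 libraries, part or all of which may be technical.

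Smarca4 stood at 898 and 937 CPM in control and 760.1 and 691 CPM in Brg1-cKO, where CPM is the usual depth-scaled count, here with TMM normalization. The targeted transcript was thus lower in the Brg1-cKO group, by a log2 fold change of -0.34 (SE 0.09) at an adjusted p of 0.167 with edgeR's quasi-likelihood test. The counts cover the whole gene, so exons outside a deleted part can contribute. Gene counts totalled 35411905 and 37999342 in the controls and 14645665 and 10922272 in Brg1-cKO. Among uniquely aligned reads, 15.4% to 16.5% matched no counted feature in the controls and 49.5% to 57.2% in Brg1-cKO. The libraries of a group also differed in how well they matched each other: among 10274 genes with a mean of at least 10 CPM, 0.603% differed by 2-fold or more between the controls and 35.2% between the Brg1-cKO libraries. Whether these differences in library quality contribute to the results that follow was not tested.

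Across the 10 genes, 9 had a higher fitted level in Brg1-cKO, and Fgf8 was the exception. The share was 47% of all genes tested and 53.2% of tested genes with a mean of at least 10 CPM. The median log2 fold change of the 10 genes was 0.998, beside -0.060 over all tested genes and 0.044 over tested genes with a mean of at least 10 CPM. Both Brg1-cKO libraries lay above both controls for 6 of the 10 (Wnt4, Pax8, Lef1, Ccnd1, Lhx1 and Papss2). That pattern was seen in 17.5% of all tested genes and in 23.6% of those with a mean of at least 10 CPM. Fgf8 alone had both Brg1-cKO libraries below both controls, as did 34.5% of tested genes. With edgeR's quasi-likelihood test, 0 of the 10 passed an adjusted p of 0.05, and 0% of all genes did. At an unadjusted p under 0.05, 5 of the 10 were higher (Wnt4, Pax8, Lef1, Ccnd1 and Lhx1), where 5.44% of tested genes were, and 0 were lower, where 12.9% of tested genes were. DESeq2 on the same genes called the same 5 at an adjusted p of 0.05, where it called 3.58% of genes as higher and 1.85% as lower. An exact permutation test of 2 against 2 libraries cannot give a two-sided p below 0.333.

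**Figure D1:**
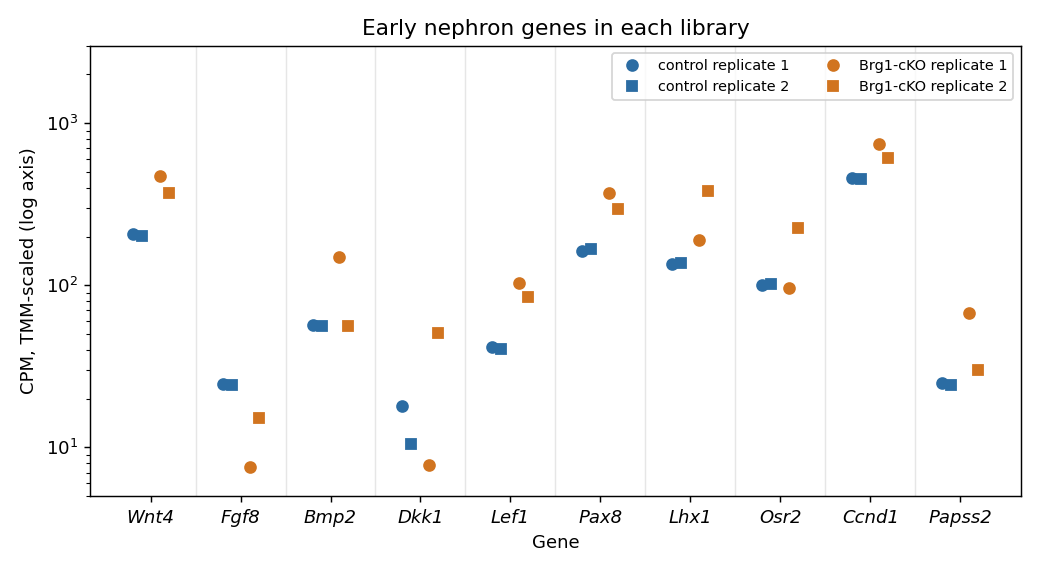
Level of each gene in each library, in CPM on a log axis, with controls in blue, Brg1-cKO in orange, replicate 1 as circles and replicate 2 as squares. The orange points of Wnt4, Lef1, Pax8 and Ccnd1 lie close together above the blue ones, while those of Bmp2, Dkk1, Lhx1, Osr2, Papss2 and Fgf8 lie about 2-fold or more apart.

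Of the secreted signals, Wnt4 had the clearest separation. Wnt4 acts on the progenitors that make it and drives them into epithelium. It was at 206 and 202 CPM in the controls and at 470.1 and 370.3 CPM in Brg1-cKO. The lower Brg1-cKO library was thus still well above the higher control. Its log2 fold change was 1.04 (SE 0.16, edgeR adjusted p = 0.166), and it ranked 118 by p among the 18172 genes tested. Wnt4 kept its direction in each of 16 alternative analyses (0.83 to 1.19). Among those that kept all 4 libraries, its adjusted p ran from 1.62e-06 (DESeq2 on all genes with a count) to 0.412 (edgeR without a filter). Fits that leave 1 library in a group are read here for their fold changes only.

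Fgf8, a fibroblast growth factor of the pretubular aggregate and renal vesicle that keeps the forming nephron alive, went the other way. It was at 24.7 and 24.3 CPM in the controls and at 7.55 and 15.1 CPM in Brg1-cKO. Both Brg1-cKO values were below the controls, but they differed from each other 2.01-fold. This was a log2 fold change of -1.11 (SE 0.58), with an edgeR adjusted p of 0.443. Leaving out Brg1-cKO replicate 1 gave -0.72, and leaving out replicate 2 gave -1.72. The smallest count behind these values was 108 reads, in Brg1-cKO replicate 1.

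Bmp2, a BMP-family ligand of the renal vesicle, was at 56.5 and 56.3 CPM in the controls, 149 CPM in Brg1-cKO replicate 1 and 56.05 CPM in replicate 2. A single library thus carried its difference, and replicate 2 sat at the control level. Its log2 fold change of 0.86 (SE 0.53), with an edgeR adjusted p of 0.525, became -0.037 without Brg1-cKO replicate 1.

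Dkk1 encodes a secreted protein that blocks the Wnt co-receptors Lrp5 and Lrp6. Its levels were 17.9 and 10.5 CPM in the controls, 7.83 CPM in Brg1-cKO replicate 1 and 50.9 CPM in replicate 2. The Brg1-cKO libraries enclosed the controls, and they were 6.50-fold apart, the widest gap of the 10 genes. Dkk1 was also the only one of the 10 whose controls differed by more than 1.03-fold (1.70-fold). A log2 fold change of 1.04 (SE 1.03), with an edgeR adjusted p of 0.699, changed to -0.88 without Brg1-cKO replicate 2 and to 1.81 without replicate 1.

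Among the transcription factors, Lef1, the DNA-binding partner of beta-catenin and itself a Wnt target, was at 41.6 and 40.5 CPM in the controls and at 104 and 85.3 CPM in Brg1-cKO. The groups were far apart relative to their spread. The log2 fold change was 1.21 (SE 0.23, edgeR adjusted p = 0.166), the largest of the 10 genes, with 1.03 to 1.32 over the 16 alternatives.

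Pax8, a paired-box factor that acts beside Pax2 in the kidney lineage, was at 164 and 167 CPM in the controls and at 373 and 295 CPM in Brg1-cKO, with no overlap. The log2 fold change was 1.02 (SE 0.16, edgeR adjusted p = 0.166), and it stayed between 0.81 and 1.16 over the alternatives.

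Lhx1, a LIM-homeodomain factor required in the renal vesicle, was at 135 and 137 CPM in the controls and at 190.4 and 385 CPM in Brg1-cKO. Both Brg1-cKO libraries were higher than both controls, but by unequal amounts. In the fit this came to 1.08 (SE 0.38) as a log2 fold change, with an edgeR adjusted p of 0.269. It was 0.47 without Brg1-cKO replicate 2 and 1.47 without replicate 1.

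Osr2, an odd-skipped zinc-finger factor, was at 101 CPM in both controls, 96.0 CPM in Brg1-cKO replicate 1 and 226 CPM in replicate 2. Replicate 1 lay just under the controls, so the groups overlapped. The fitted log2 fold change of 0.67 (SE 0.46), with an edgeR adjusted p of 0.571, became -0.095 without Brg1-cKO replicate 2.

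Ccnd1 encodes cyclin D1, which drives cells through G1 and is a common target of Wnt signalling. Per unit of exon length it was the most abundant of the 10. It was at 458 and 454 CPM in the controls and at 743 and 613 CPM in Brg1-cKO, without overlap. Its log2 fold change was 0.57 (SE 0.13, edgeR adjusted p = 0.166), a smaller difference than for Wnt4, Pax8 or Lef1.

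Papss2 makes the sulfate donor used to build heparan and chondroitin sulfate. Levels were 25.1 and 24.5 CPM in the controls and 67.7 and 29.99 CPM in Brg1-cKO. The groups did not overlap, but replicate 2 was close to control. A fitted log2 fold change of 0.98 (SE 0.50), with an edgeR adjusted p of 0.436, became 0.25 without Brg1-cKO replicate 1.

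**Figure D2:**
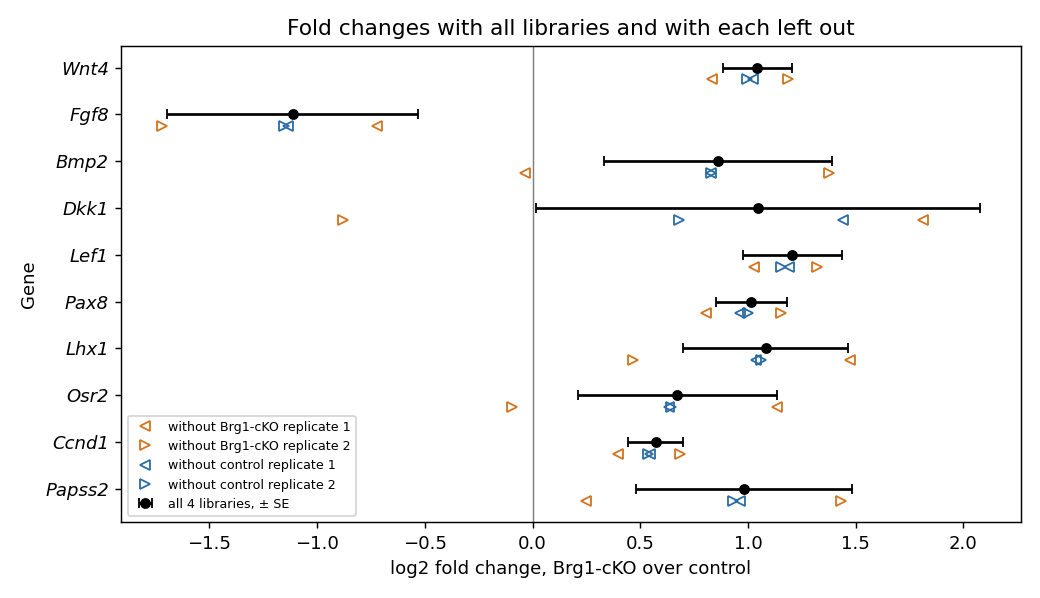
Log2 fold change of Brg1-cKO over control for each gene: black points with bars of 1 standard error use all 4 libraries, and triangles leave out 1 library (orange for a Brg1-cKO library, blue for a control). Wnt4, Lef1, Pax8 and Ccnd1 hold their place whichever library is left out, while Bmp2, Dkk1 and Osr2 cross 0 when a single Brg1-cKO library is removed.

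The libraries of the Brg1-cKO group sorted the 10 genes into 3 kinds. Wnt4, Pax8, Lef1 and Ccnd1 differed little between them, with replicate 1 higher by 1.27-, 1.27-, 1.22- and 1.21-fold. Bmp2 and Papss2 were higher in replicate 1, by 2.65- and 2.26-fold. Dkk1, Osr2, Lhx1 and Fgf8 were higher in replicate 2, by 6.50-, 2.36-, 2.02- and 2.01-fold. In all, 6 of the 10 differed by 2-fold or more, beside 35.2% of tested genes with a mean of at least 10 CPM. Between the controls 0 of 10 did so, beside 0.603%. Uncommitted progenitor genes were split between these libraries: of 10, 5 were higher in replicate 1 and 5 in replicate 2, and their sums were close, at 1402 and 1376 CPM. Six2, the factor that holds progenitors undifferentiated, was at 234 CPM in replicate 1 and 126 CPM in replicate 2, with controls at 242 and 237 CPM. Cited1, a marker of the least committed progenitors, was at 43.0 and 5.98 CPM, with controls at 19.9 and 17.2 CPM. Meox2 and Osr1 ran the other way, at 20.3 and 47.0 CPM and at 66.0 and 123 CPM. Tubule markers summed to 138 CPM in replicate 1 and 228 CPM in replicate 2, against 107 and 102 CPM in the controls, but their members were also mixed, with 3 higher and 3 lower than control of 6 tested. Slc12a1, a salt transporter, was at 42.2 CPM in replicate 1 and 86.9 CPM in replicate 2, and the endocytic receptor Cubn at 16.5 and 5.51 CPM. Whether the mix of cells in each library has a part in the 3 kinds was not tested.

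**Figure D3:**
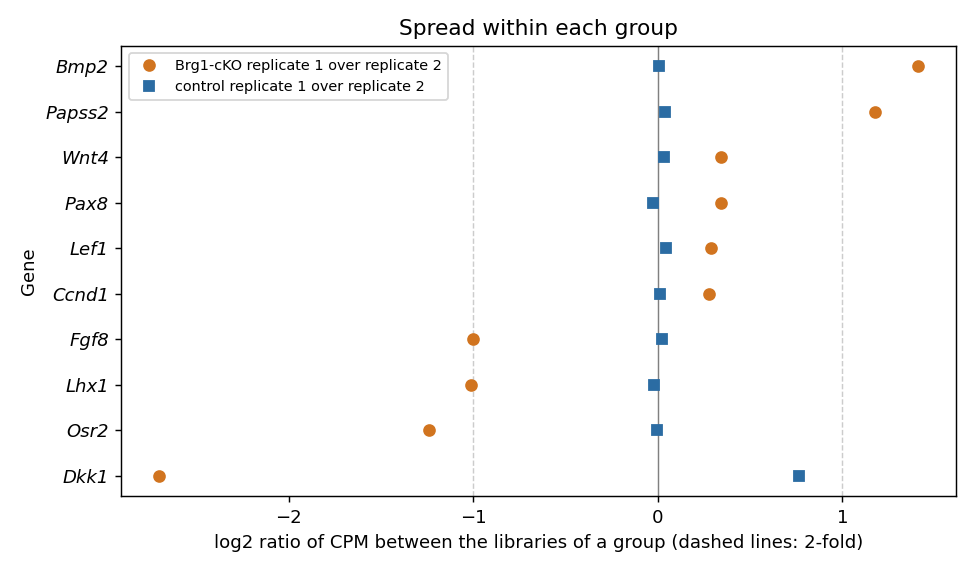
Log2 ratio of CPM between replicate 1 and replicate 2, for Brg1-cKO (orange circles) and control (blue squares), genes ordered by the Brg1-cKO ratio, dashed lines at 2-fold. All control ratios except that of Dkk1 lie near 0, and the Brg1-cKO ratios run from Dkk1, lowest in replicate 1, to Bmp2, highest in it.

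Levels can be compared between genes only per length, so CPM was divided by the summed exon length of each gene in kilobases. On this scale the control order was Ccnd1 (96.8 CPM per kb), Wnt4 (48.6), Lhx1 (33.4), Osr2 (27.9), Pax8 (27.3), Fgf8 (18.2), Bmp2 (15.9), Papss2 (6.66), Dkk1 (5.86) and Lef1 (4.67), as means of 2 libraries. Dkk1 overlapped its neighbours Papss2 and Lef1, while the other neighbours in this order did not overlap in the controls. Ccnd1 stood above 98.2% of the tested genes per length in the controls, Wnt4 above 95.3% and Lef1 above 53.3%. In Brg1-cKO the order began with Ccnd1 (144 ± 19.6 CPM per kb, SD, n = 2) and Wnt4 (100.2 ± 16.8), whose ranges did not overlap, and ended with Lef1 (10.8 ± 1.51) and Fgf8 (8.40 ± 3.97). From Wnt4 downward every neighbour in the Brg1-cKO order overlapped the next. Fgf8 moved from the sixth place in control to the tenth in Brg1-cKO.

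Wnt4, Pax8 and Lef1 had nearly the same profile over the 4 libraries, so the sequences before their start sites are shown. Of the 10 genes, 6 had a promoter in the RefSeq table (GRCm38.p6); the window searched was the 250 bases before the most upstream RefSeq start. The stretches below leave out bases that GENCODE M21 places in an exon of the gene, are written 5′ to 3′ on the gene's strand, and carry capitals where a searched motif matches. They lie at chr4:137277385-137277488 on the plus strand for Wnt4, chr2:24475600-24475849 on the minus strand for Pax8 and chr3:131110047-131110296 on the plus strand for Lef1.
Wnt4: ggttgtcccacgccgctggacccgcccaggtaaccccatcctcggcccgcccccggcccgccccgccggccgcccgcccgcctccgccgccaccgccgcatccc
Pax8: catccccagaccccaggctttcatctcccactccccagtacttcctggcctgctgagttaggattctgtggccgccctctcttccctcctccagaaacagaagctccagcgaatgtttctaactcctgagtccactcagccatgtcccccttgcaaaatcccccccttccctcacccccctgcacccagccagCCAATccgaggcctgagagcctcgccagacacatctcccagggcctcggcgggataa
Lef1: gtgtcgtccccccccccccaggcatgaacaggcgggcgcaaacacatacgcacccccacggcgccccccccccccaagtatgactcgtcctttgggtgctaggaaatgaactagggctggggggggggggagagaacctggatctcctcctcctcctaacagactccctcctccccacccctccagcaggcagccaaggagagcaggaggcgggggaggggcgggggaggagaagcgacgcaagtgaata

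The words CTTTGAA with CTTTGAT, and CTTTGTA with CTTTGTT, each on either strand, were searched as the short sequence bound by Lef1 and its relatives. At least 1 of them was present in 14.9% of 27026 promoters of the same length. None occurred in the windows of Wnt4, Pax8, Lef1, Lhx1 or Papss2. Dkk1, a known feedback gene of Wnt signalling, had 2 matches, 117 and 98 bases before the RefSeq start. GENCODE places both within its longer first exon. They are shown with their flanks, at chr19:30549596-30549624 and chr19:30549577-30549605 on the minus strand, since Dkk1 was the 1 gene of the 6 to hold such a match.
Dkk1, first match: tcctcccaaagCTTTGAAatcccatcccg
Dkk1, second match: tcccatcccggCTTTGTTgtcttccctga

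Other features of the 6 windows varied. The CCAAT box, searched on both strands, was in the windows of Pax8 and Lhx1 and in 34.5% of all promoters. The word TATAAA, searched on the gene's strand, was in that of Dkk1 and in 8.13% of all. GC content ran from 60.4% for Pax8 to 85.2% for Wnt4, all above the median of 52% over all promoters. CpG density relative to base composition was near 1 for Wnt4 (1) and Lhx1 (0.991) and low for Dkk1 (0.26) and Pax8 (0.314), beside a median of 0.379. Wnt4 and Pax8, which moved almost alike, thus differed in this respect. These values are for whole windows. Of the 250 bases, GENCODE places 146 in an exon for Wnt4, 169 for Dkk1 and 0 for Pax8. A match describes letters in a window and shows no binding.

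Genes with the profile most like that of Wnt4 were sought by the root mean square difference of log2 CPM, each gene centred on its mean over the 4 libraries. The search covered 9779 genes with a mean of at least 10 CPM. It left out predicted, clone and pseudogene names and kept protein-coding, lincRNA, processed transcript and antisense genes. The nearest were Mgat1 (0.018 on the log2 scale), Pax8 (0.026) and Mapk1ip1 (0.033). Mgat1 was at 46.6 and 46.9 CPM in control and at 108 and 83.3 CPM in Brg1-cKO. Nearest to Lef1 were Golim4 (0.036), Thap3 (0.039) and Lama5 (0.041), the last a laminin chain of epithelial basement membranes at 238 and 230.2 CPM in control and 602 and 521 CPM in Brg1-cKO. Only 4 libraries of 2 groups define these profiles, so many genes can lie close.

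The other genes of the early nephron were read from a separate list of 16, of which 15 were tested. In Brg1-cKO 9 were higher and 6 lower, with a median log2 fold change of 0.44. At an unadjusted edgeR p under 0.05, 6 were higher and 0 lower, beside 5.44% and 12.9% of all tested genes. After adjustment over all genes edgeR called 0. DESeq2 called 4, all higher, where it called 3.58% of all tested genes as higher. Cdh4, which encodes R-cadherin, was at 144 and 146 CPM in control and at 285 and 268 CPM in Brg1-cKO, a log2 fold change of 0.93 (SE 0.12). Pou3f3, a POU-domain factor of the forming tubule, had 1.30 (SE 0.19), Jag1, a Notch ligand, 0.62 (SE 0.11), and Foxc2, a forkhead factor also found in podocytes, 0.77 (SE 0.21). The Notch ligand Dll1 was at 44.3 and 48.3 CPM in control and 34.9 and 38.8 CPM in Brg1-cKO. Hes5, a Notch target, was not tested, with 0 reads in both Brg1-cKO libraries and 0.168 and 0.181 CPM in the controls.

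Markers of a more mature nephron cell, the podocyte, also stood higher. All 8 podocyte markers separated the groups, with Brg1-cKO higher. So did 17.5% of all tested genes and 23.6% of those with a mean of at least 10 CPM. Together the 8 markers stood at 573 and 583 CPM in control and 2784 and 2524 CPM in Brg1-cKO. Podxl, the podocyte sialomucin, contributed most, at 279 and 282 CPM in control and 1755 and 1359 CPM in Brg1-cKO. In a bulk sample, more cells of a type and more RNA per cell cannot be told apart, and the part of podocytes in the levels of the 10 genes was not tested. Of 10 uncommitted progenitor genes, 5 were higher and 5 lower, with a median log2 fold change of 0.019. Sall1 alone had an unadjusted p under 0.05 (log2 fold change 0.30, SE 0.09), where 5.44% of all tested genes were higher and 12.9% lower. Sall1 was at 439 and 441 CPM in control and 548 and 535 CPM in Brg1-cKO. By fitted sign, stromal markers were lower in 8 of 8, endothelial ones in 8 of 8 and immune ones in 7 of 8. The share of all tested genes higher by that measure was 47%. Both Brg1-cKO libraries lay below both controls for 8 stromal, 6 endothelial and 6 immune markers, as for 34.5% of all tested genes. The endothelial markers Plvap and Esam overlapped between the groups. Stromal markers summed to 2683 and 2651 CPM in control and to 1315 and 1182 CPM in Brg1-cKO.

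Upstream of the 10 genes, Wnt9b, the inducing signal from the ureteric bud, was at 6.71 and 9.44 CPM in control and had 0 reads in both Brg1-cKO libraries. With 3 counts over the Brg1-cKO group as the floor, that is at least 67.3-fold lower, a bound for counting error only. Zeros were common at this level: of 5418 tested genes with a control mean of at least 1 and under 10 CPM, 16.3% had 0 reads in both Brg1-cKO libraries and 32.9% in 1 of them. With all libraries thinned to the smallest total, the controls had reads in 24206 and 24322 genes and the Brg1-cKO libraries in 16099 and 18038. Wnt4 and Lef1 stood higher in the same libraries. Of the 8 ureteric bud markers, 7 had both Brg1-cKO libraries below both controls, as did 34.5% of all tested genes. Calb1 had 0 reads in both Brg1-cKO libraries against 54.6 and 51.1 CPM in control, the 1 gene of 4994 with a control mean of at least 50 CPM to do so. The exception was Gata3, at 28.7 and 31.5 CPM in control and 35.1 and 18.1 CPM in Brg1-cKO. The 8 markers summed to 185 and 180.3 CPM in control and 46.6 and 38.5 CPM in Brg1-cKO, and Gata3 was the largest part of what remained. Of the 17 ligands, receptors and effectors of Wnt input, 16 were tested, 7 higher and 9 lower. At an unadjusted p under 0.05 there was 1 higher and 3 lower, beside 5.44% and 12.9% of all tested genes. Lgr4, a receptor for R-spondins, was at 194 and 175 CPM in control and 289 and 282 CPM in Brg1-cKO, a log2 fold change of 0.63 (SE 0.13). Fzd1, a Wnt receptor, had -1.42 (SE 0.23), and the ligand Wnt7b had 0 reads in both Brg1-cKO libraries. Ctnnb1, which encodes beta-catenin, was at 928 and 901 CPM in control and 917 and 816 CPM in Brg1-cKO.

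Canonical Wnt feedback genes were mixed. Of 9 tested, 4 were higher and 5 lower, with a median log2 fold change of -0.44. In either direction 0 had an unadjusted p under 0.05, where 5.44% of all tested genes were higher and 12.9% lower. Notum, Sp5 and Lgr5 had 0 reads in Brg1-cKO replicate 1, with 6.54, 6.82 and 28.7 CPM in replicate 2. Rnf43 had 0 reads in replicate 2 and 5.03 CPM in replicate 1. Standard errors of these genes were 2.29 to 2.54, so the median and the count by direction depend on zeros in single libraries. Axin2, the most used reporter of beta-catenin activity, was at 55.3 and 59.9 CPM in control, 121 CPM in Brg1-cKO replicate 1 and 53.5 CPM in replicate 2. Znrf3, a ubiquitin ligase that removes Wnt receptors, was at 62.6 and 66.4 CPM in control and 80.5 and 84.9 CPM in Brg1-cKO. Apcdd1, a membrane inhibitor of Wnt signalling, was at 42.0 and 44.1 CPM in control and 26.1 and 33.4 CPM in Brg1-cKO. Tcf7, the nearest relative of Lef1, was at 44.5 and 44.8 CPM in control and 31.0 and 34.8 CPM in Brg1-cKO, a log2 fold change of -0.44 (SE 0.28). The difference between Lef1 and these genes was not itself tested.

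**Figure D4:**
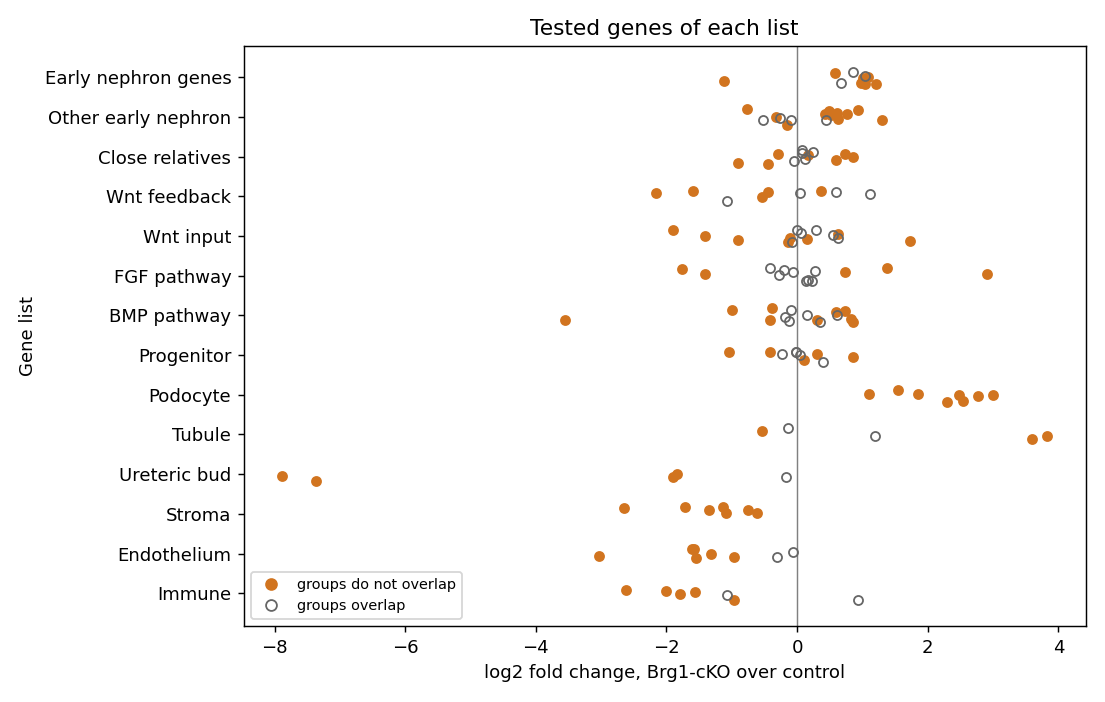
Log2 fold change of Brg1-cKO over control for the tested genes of each list, 1 point per gene, filled where the libraries of the groups do not overlap and open where they do; genes with 0 reads in both Brg1-cKO libraries are left out. The early nephron genes cluster near 1 with Fgf8 apart at -1.11, Wnt feedback, FGF and BMP genes lie on both sides of 0, and all 8 podocyte markers lie above 1.

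Around Fgf8, 13 genes of the FGF pathway were tested, 7 higher and 6 lower, with 2 in each direction at an unadjusted p under 0.05. Of all tested genes, 5.44% were higher and 12.9% lower at that threshold. Fgf9, a ligand that maintains nephron progenitors, was at 7.38 and 6.79 CPM in control and 59.7 and 46.2 CPM in Brg1-cKO. Its log2 fold change of 2.90 (SE 0.37) was opposite in sign to that of Fgf8. Fgfrl1, a receptor without a kinase domain that is needed for nephron formation, was at 63.0 and 62.4 CPM in control and 104 and 103 CPM in Brg1-cKO. The feedback inhibitors Spry2 and Spred1 were lower, with log2 fold changes of -1.77 (SE 0.37) and -1.41 (SE 0.33). The edgeR adjusted p was 0.166 for both, and DESeq2 gave 0.0114 and 0.00656. Other feedback genes, Spry1, Spry4 and Dusp6, overlapped between the groups, with log2 fold changes of -0.27, 0.16 and -0.20. The FGF-responsive factor Etv4 was at 140.2 and 143 CPM in control, 227 CPM in Brg1-cKO replicate 1 and 84.9 CPM in replicate 2. Fgf8 ran the other way between those libraries.

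Around Bmp2, 15 genes of the BMP pathway were tested, 8 higher and 7 lower, and 0 had an unadjusted p under 0.05. By sign, 47% of all tested genes were higher, and at that threshold 5.44% were higher and 12.9% lower. Bmp4, the closest relative of Bmp2, shared its order over the Brg1-cKO libraries, with 47.4 and 48.05 CPM in control, 99.2 CPM in replicate 1 and 59.5 CPM in replicate 2. Id3, a BMP target, was at 189 CPM in both controls and at 217 and 355 CPM in Brg1-cKO. Its relatives in the list did not follow it. Id2 was lower in both Brg1-cKO libraries, at 257 and 178 CPM against 285 and 284 CPM in control. Id1 overlapped between the groups, with a log2 fold change of -0.089 (SE 0.21). The receptor Bmpr1b was at 14.4 and 17.6 CPM in control and 31.7 and 26.2 CPM in Brg1-cKO, and Bmpr2 at 186 and 166 CPM against 115 and 149 CPM.

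Close relatives of the 10 genes were mixed in direction. Of 14 relatives 13 were tested, 8 higher and 5 lower, with a median log2 fold change of 0.081. Pax2, the partner of Pax8, was at 598 and 595 CPM in control and 675 and 666 CPM in Brg1-cKO, a log2 fold change of 0.17 (SE 0.08). Osr1, the relative of Osr2, was at 52.7 and 51.6 CPM in control and 66.0 and 123 CPM in Brg1-cKO, with replicate 2 higher as for Osr2. Ccnd2 went against Ccnd1, at 505 and 529.9 CPM in control and 229.8 and 325 CPM in Brg1-cKO, a log2 fold change of -0.90 (SE 0.20). Ccnd3 had -0.30 (SE 0.21). Papss1, which makes the same sulfate donor as Papss2, was at 90.5 and 81.2 CPM in control and 118 and 142 CPM in Brg1-cKO, with 0.60 (SE 0.20). Dkk2, Dkk3, Tcf7l1, Tcf7l2 and Fgf18 overlapped between the groups, with log2 fold changes from -0.044 to 0.25. Fgf17 was scarce, at 0.699 and 0.571 CPM in control and 0 reads in Brg1-cKO. Lhx5 had 0 reads in every library.

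On mm10, with GENCODE M21 positions, all 10 are protein-coding genes. Wnt4 (ENSMUSG00000036856) lies at chr4:137277489-137299726, Fgf8 (ENSMUSG00000025219) at chr19:45736798-45742915, Bmp2 (ENSMUSG00000027358) at chr2:133552159-133562885 and Dkk1 (ENSMUSG00000024868) at chr19:30545863-30549665. Lef1 (ENSMUSG00000027985) lies at chr3:131110471-131224356, Pax8 (ENSMUSG00000026976) at chr2:24420560-24475599, Lhx1 (ENSMUSG00000018698) at chr11:84518284-84525535 and Osr2 (ENSMUSG00000022330) at chr15:35296098-35303305. Ccnd1 (ENSMUSG00000070348) lies at chr7:144929931-144939925 and Papss2 (ENSMUSG00000024899) at chr19:32595790-32667187. Lef1, Pax8 and Ccnd1 share exon bases with an antisense gene, over 13.8%, 6.05% and 23.4% of their exon length. Those neighbours were low: Gm13415, opposite Pax8, was at 1.87 to 5.87 CPM, LTO1, opposite Ccnd1, at 11.2 to 18.2 CPM, and Gm43352, opposite Lef1, at 1.05 CPM or less in every library. Whether the counting used strand was not given in the sources used here, so reads in the shared bases may be missing from both genes.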

How the data were processed

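The authors deposited raw read counts per Ensembl gene for each library, as whole numbers. Per the labels' protocols, mRNA from sorted cells was made into strand-specific, randomly primed libraries and read as single ends of 75 bp. Per the submitters' processing notes, mm10, TopHat and DESeq2 were used; no versions, counting tool or annotation is given in the sources used here. Reads given to no gene, 31.8% and 32.4% of all reads in control and 65.5% and 72.1% in Brg1-cKO, were left out.

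Counts were fitted with edgeR 4.0.16 (R 4.3.3): TMM scaling, the default filter (minimum count 10), robust dispersions, the quasi-likelihood F test with group as its only term, and Benjamini-Hochberg adjustment over all tested genes. Standard errors are the log2 fold change over the root of F. DESeq2 1.42.0 and limma 3.58.1 served as alternatives. The edgeR, DESeq2 and limma fits, with default scaling and filter, were first run on counts simulated with the spread of the controls in all 4 libraries. The other settings were not run on simulated counts. The wider spread of the Brg1-cKO libraries was not simulated, so that check does not cover groups of unequal spread. The floor for a count of 0 was set at 3 counts (0.0778 to 0.280 CPM by library) and covers counting error only. The controls had a biological coefficient of variation of 0.174 and the Brg1-cKO libraries 1.15. The chi-square per gene within a group was 9.68 and 127, above sampling noise, so no library was taken for a copy of another; this does not show separate animals.

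The 10 genes and the other lists were chosen with earlier results of these data known. The rule for named genes took the 10 genes, Smarca4, up to 4 genes of smallest p per list, every close relative, and the 3 genes most like Wnt4 and Lef1; further genes were named after their values were seen. Erythroid markers were near 0, at most 0.841 CPM in sum, but they leave out Hba-x, an embryonic globin with 669 reads in Brg1-cKO replicate 1 and at most 3 elsewhere. Promoter sequences are RefSeq's.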

Additional observations from a re-analysis of the deposited data

How the results depend on the processing

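The count of genes past an adjusted p of 0.05, 0 with edgeR's quasi-likelihood test, stayed 0 with RLE scaling, total counts, other filters, library sizes that leave out hemoglobin, mitochondrial and ribosomal protein genes, and no robust dispersions. It was 987 with DESeq2, 2038 with DESeq2 on all genes with a count (added after seeing the data), 2471 with the likelihood ratio test of edgeR, 327 under limma-voom, 134 when limma-voom had its variance set per group, and 156 with the replicate block. Leaving out 1 library gave 16 without either control, 12315 without Brg1-cKO replicate 1 and 13262 without replicate 2, the lone library being assumed to vary like the controls. Of the 10 genes, DESeq2 called 5 and, on all genes with a count, 4; the likelihood ratio test called 3, limma-voom 0, the variance per group 1 and the replicate block 2 (Wnt4 and Pax8). Leaving out a library gave 0 to 9 called, and 3 to 9 at an unadjusted p under 0.05. The fit without Brg1-cKO replicate 1 tested 22171 genes, and the fit without replicate 2 tested 21897. Most tested genes thus passed the adjusted threshold in each of these fits, so the high counts among the 10 genes do not set them apart. For the unadjusted threshold, the share of all genes with a library left out is not given here, so those counts have no background. The replicate numbers were not taken as pairs, since the labels do not say that a number marks a shared animal or day. Same-numbered libraries did not deviate together (correlation across genes -0.017). With 2 libraries a group and a wide spread in Brg1-cKO, that value cannot exclude pairs. Log2 fold changes turned sign without Brg1-cKO replicate 1 for Bmp2 (-0.037, and 1.38 without replicate 2) and without replicate 2 for Dkk1 (-0.88, and 1.81 without replicate 1) and Osr2 (-0.095, and 1.14 without replicate 1); the other 7 genes and Smarca4 kept their sign in all 16 alternatives. The count with both Brg1-cKO libraries above both controls was 6, and 7 with RLE scaling (Bmp2 added). It was again added after seeing the data. Among all tested genes the share was 17.5% in the main fit and was not computed with RLE scaling. The count is not given with a library left out, since separation is easier to reach with 1 library in a group. Each of the 10 genes had at least 108 reads in every library.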
